A study of Mus musculus with 42 samples.

Results

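The short gaps described here are the stretches of 10 kb to under 500 kb that separate neighbouring lamina-associated domains (LADs) on chr1 to chr19 of mouse liver. They were chosen by their length alone, as the distance from the end of a LAD to the start of the next LAD in the same library. In the 14 libraries there were 139 such gaps among 2498 gaps of any length, and gaps that overlapped by at least 0.5 of both lengths were counted as the same locus, which gave 70 loci. The LADs came from chromatin immunoprecipitation and sequencing of lamin B1 (LMNB1) in whole liver of wild-type C57Bl/6 mice, 2 mice at each of 7 time points. The CT0, CT6, CT12, CT18, CT24 and CT30 mice were fasted for 24 h, and food was freely given again from CT0. CT0 is thus the end of the fast, and the later CTs follow refeeding. The non-synchronized (NS) mice were killed at noon on the day before food restriction. The labels call the source female in 1 field and male in another, and age was not given in the sources used here. The samples are bulk liver, so a gap that is at the lamina in some cells only cannot be told apart from one that is absent from it in all cells. Libraries are named by time point and replicate as labelled.

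LADs are long, gene-poor stretches of chromatin that contact the meshwork of lamins under the inner nuclear membrane, and genes within them are mostly silent. Genes that are active or held away from the lamina can lie in breaks between LADs. The LADs were called by the authors with Enriched Domain Detector (EDD), which scores bins of fixed size and joins them into domains with a penalty for bins of low enrichment, so that a short break can be bridged. A run of N in a genome assembly stands for sequence that is missing from it, and no read can be mapped there.

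The short gaps were parted into 2 kinds, with and without N, and these differed in length and recurrence. At 19 loci, with 68 gaps, every gap held a run of N of the mm10 assembly, and at the other 51 loci, with 71 gaps, no gap held a single N. None of the LADs of the 14 libraries held an N base on chr1 to chr19, although the assembly has 389 runs of N there. Each LAD border that lay off the grid of its library, 162 of 5528 borders, was at the edge of a run of N. Likewise all 77 gaps shorter than 10 kb were equal to a run of N, and 30 of these were 1 base long. Whether LMNB1 is bound across a run of N cannot be read from these data.

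Promoters inside the gaps without N that recurred most ranged from CpG-poor to CpG-rich. The sequences below, of 300 bases each, are those of the genes of loci 5, 8, 9 and 10, in order of the number of libraries, that RefSeq gave and the naming rule reached (GRCm38.p6, from 250 bases before to 50 after the start, 5′ to 3′ on the strand of the gene). CpG dinucleotides are in capitals, to show how the immune genes of the Trim cluster differ from Arap2 and Ptp4a1. They are at chr7:104218545-104218844 (+) for Trim6, chr7:104244207-104244506 (+) for Trim34a, chr7:104288057-104288356 (-) for Trim5, chr5:62766128-62766427 (-) for Arap2, chr1:30949706-30950005 (-) for Ptp4a1 and chr4:74242247-74242546 (+) for Kdm4c, each inside the gap.
Trim6: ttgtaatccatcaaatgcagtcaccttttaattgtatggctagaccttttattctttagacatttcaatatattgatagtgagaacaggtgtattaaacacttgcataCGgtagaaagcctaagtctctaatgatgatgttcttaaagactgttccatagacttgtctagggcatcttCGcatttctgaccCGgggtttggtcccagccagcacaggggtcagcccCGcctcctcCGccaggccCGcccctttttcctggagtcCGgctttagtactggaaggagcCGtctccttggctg
Trim34a: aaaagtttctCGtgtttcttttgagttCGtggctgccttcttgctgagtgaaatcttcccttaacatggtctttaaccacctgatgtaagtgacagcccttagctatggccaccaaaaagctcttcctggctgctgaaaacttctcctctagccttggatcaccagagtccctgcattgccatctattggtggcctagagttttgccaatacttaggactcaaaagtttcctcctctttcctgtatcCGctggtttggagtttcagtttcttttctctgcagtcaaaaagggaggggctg
Trim5: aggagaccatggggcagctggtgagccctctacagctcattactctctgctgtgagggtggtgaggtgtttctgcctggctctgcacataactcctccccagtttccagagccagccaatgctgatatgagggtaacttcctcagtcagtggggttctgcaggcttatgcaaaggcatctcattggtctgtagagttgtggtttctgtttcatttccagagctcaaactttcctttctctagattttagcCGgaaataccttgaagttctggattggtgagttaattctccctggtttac
Arap2: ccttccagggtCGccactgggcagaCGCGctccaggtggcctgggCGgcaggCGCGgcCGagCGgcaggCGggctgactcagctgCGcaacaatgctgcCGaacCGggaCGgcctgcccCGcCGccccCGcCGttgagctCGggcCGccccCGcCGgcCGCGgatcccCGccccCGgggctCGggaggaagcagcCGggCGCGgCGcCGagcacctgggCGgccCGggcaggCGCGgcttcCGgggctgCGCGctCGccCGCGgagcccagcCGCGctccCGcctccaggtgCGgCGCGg
Ptp4a1: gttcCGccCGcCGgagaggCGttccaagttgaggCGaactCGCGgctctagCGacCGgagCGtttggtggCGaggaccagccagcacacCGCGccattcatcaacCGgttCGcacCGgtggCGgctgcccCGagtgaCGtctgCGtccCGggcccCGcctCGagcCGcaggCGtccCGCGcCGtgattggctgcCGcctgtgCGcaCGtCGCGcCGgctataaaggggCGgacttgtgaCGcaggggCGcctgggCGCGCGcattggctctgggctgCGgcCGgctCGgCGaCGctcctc
Kdm4c: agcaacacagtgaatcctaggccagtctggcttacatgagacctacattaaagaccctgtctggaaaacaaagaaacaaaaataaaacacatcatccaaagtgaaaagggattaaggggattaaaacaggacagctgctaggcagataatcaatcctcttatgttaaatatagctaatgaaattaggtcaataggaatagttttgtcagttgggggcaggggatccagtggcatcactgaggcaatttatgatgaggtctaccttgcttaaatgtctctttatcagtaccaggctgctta

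Arap2 held 47 CpG and Ptp4a1 held 45, whereas Trim6 held 8, Trim34a 3 and Trim5 1. All other promoters of the Trim cluster held 0 to 3 CpG. The Kdm4c start printed above held 0 CpG, and a second RefSeq start inside the same locus (chr4:74251629-74251928) held 28. Over all loci, 114 promoters of 98 protein-coding genes lay in the shared parts, with a median of 8 CpG, against 14 for the 19145 promoters of protein-coding genes on the autosomes. At least 15 CpG were found in 30.7% of the promoters in gap loci and in 49.4% of all. Clusters of neighbouring genes weigh on these values. No promoter of the Trim locus held more than 8 CpG, and none at the chr16 locus of keratin-associated protein genes held more than 9. The share without these clusters was not computed. The E-box CACGTG, a motif bound by CLOCK and BMAL1 that reads the same on both strands, was in 7.02% of the promoters in gap loci and in 8.04% of all. None of the 6 promoters printed held it, and the second Kdm4c promoter held 2.

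**Figure D1:**
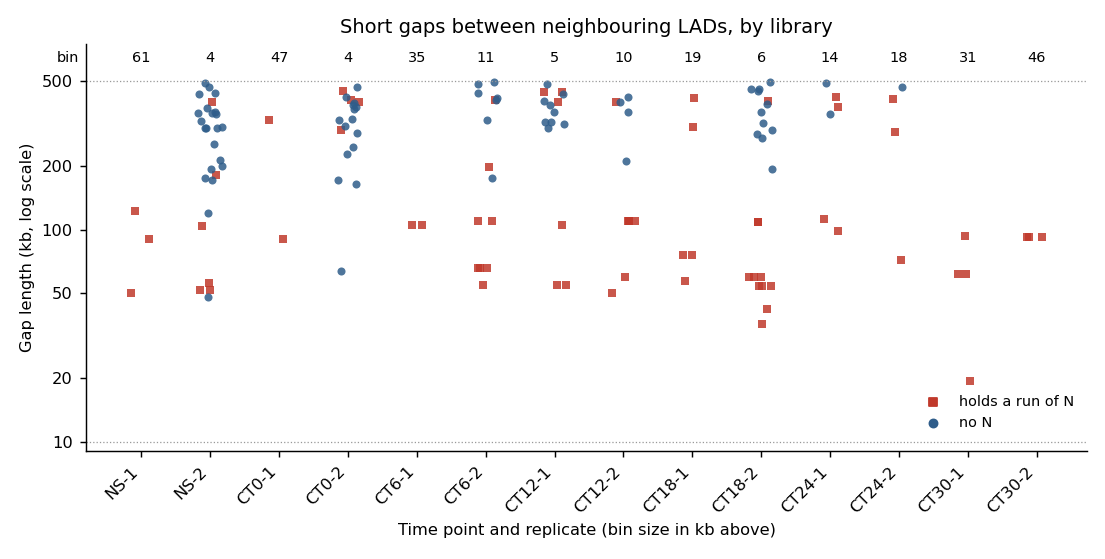
Length of each short gap in kb (log scale) in the 14 libraries, in order of time point and replicate, with the bin size of each library in kb above it and the limits of 10 and 500 kb as dotted lines. Squares are gaps that hold a run of N and circles gaps without N. Circles are found in the 6 libraries with bin sizes of up to 11 kb and in both CT24 libraries, and most lie above 100 kb.

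The loci found in most libraries were runs of N. The first, on chr7 from 9586555 to 9636554 (mm10, shared part of its gaps), was itself a run of N of 50 kb and was a short gap in 12 libraries, in both mice of 6 time points. Its gap was 50 kb in NS replicate 1 and 56 kb in NS replicate 2, 105 kb and 66 kb at CT6, 55 kb and 110 kb at CT12, 76 kb and 60 kb at CT18, 98 kb and 72 kb at CT24, and 62 kb and 92 kb at CT30. Both NS gaps were shorter than every gap at CT6, CT18, CT24 and CT30, and lay beside those of CT12, which had a gap of 55 kb and the longest gap, of 110 kb. The lengths did not rank by bin size. NS replicate 1, with bins of 61 kb, had the shortest gap, and CT12 replicate 2, with bins of 10 kb, the longest. The gap of NS replicate 1 was the run itself, and only those of CT12 replicate 2 and CT24 replicate 1 exceeded the run rounded to whole bins. All others were the rounded run, with bins of 4 kb in NS replicate 2 and 46 kb in CT30 replicate 2, so the lengths give no difference between time points. At CT0 the gap over this run was longer, with 329 kb in replicate 1 and 296 kb in replicate 2. Both CT0 gaps reached to the right of the run, over Vmn2r46 and Vmn2r47, which encode vomeronasal receptors, and formed a locus of their own (chr7 from 9584001 to 9870000). In the other 12 libraries, LADs covered from 89.0 to 100% of the known bases of that locus. The 2 CT0 gaps were noticed after the values were seen, and the difference was not tested.

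The second locus (chr7 from 21620001 to 21670000) was also a run of N of 50 kb and was a short gap in 10 libraries, in both mice of NS, CT6, CT12, CT18 and CT30. Its gap measured 122 kb and 52 kb at NS, 105 kb and 55 kb at CT6, 105 kb and 50 kb at CT12, 76 kb and 54 kb at CT18, and 93 kb and 92 kb at CT30. Over the same run CT0 replicate 2 had a gap of 408 kb with 6 protein-coding genes and CT24 replicate 1 a gap of 378 kb with 5, the vomeronasal receptor gene Vmn1r135 in both and Vmn1r137 in the first. CT24 replicate 2 had a gap of 504 kb there, just past the upper limit, so that neither CT24 mouse had the shorter gap. In CT0 replicate 1 the run lay in a gap of 40185 kb. The third locus (chr5 from 15060001 to 15460000) held a run of 395 kb and was a gap of 400 to 420 kb in 9 libraries, in both mice of CT12, CT18 and CT24. At the fourth locus (chr5 from 94088001 to 94140000), with a run of 50 kb, 8 libraries had a gap of 52 to 92 kb, in both mice of CT12, CT18 and CT30. The sixth (chr7 from 59807001 to 59862000) and the seventh (chr14 from 41780001 to 41886000) were each found in 4 libraries, with 90.9% and 94.3% N and gaps of 60 to 198 kb and 108 to 180 kb. No protein-coding gene had its transcription start site (TSS) in the shared part of these 6 loci. These parts were 90.9 to 100% N, where no gene can be annotated, so nothing is drawn from this. Gaps that reached past the run did hold a TSS. That of Vmn1r132 lay in the second locus's gap in replicate 1 of NS, CT6, CT12, CT18 and CT30. At the fourth, the gap of CT30 replicate 2 held those of BC061212 and Gm6351, and at the seventh that of NS replicate 2 held 4.

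The length of the gaps over runs of N followed the grid of the library. The grid step of each library, its bin size, was 4 kb at the finest and 61 kb at the coarsest. Of the 68 gaps with N, 45 were equal to the run of N rounded outward to whole bins and 4 were equal to the run itself. The remaining 19 were longer than the rounded run. At the third locus all 9 gaps were the rounded run: with bins of 4 kb the gap was 400 kb, with bins of 11 kb it was 407 kb and with bins of 19 kb it was 418 kb. Of the 119 runs of N of at least 10 kb beyond the chromosome starts, 17 lay at a short gap in at least 1 library.

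**Figure D2:**
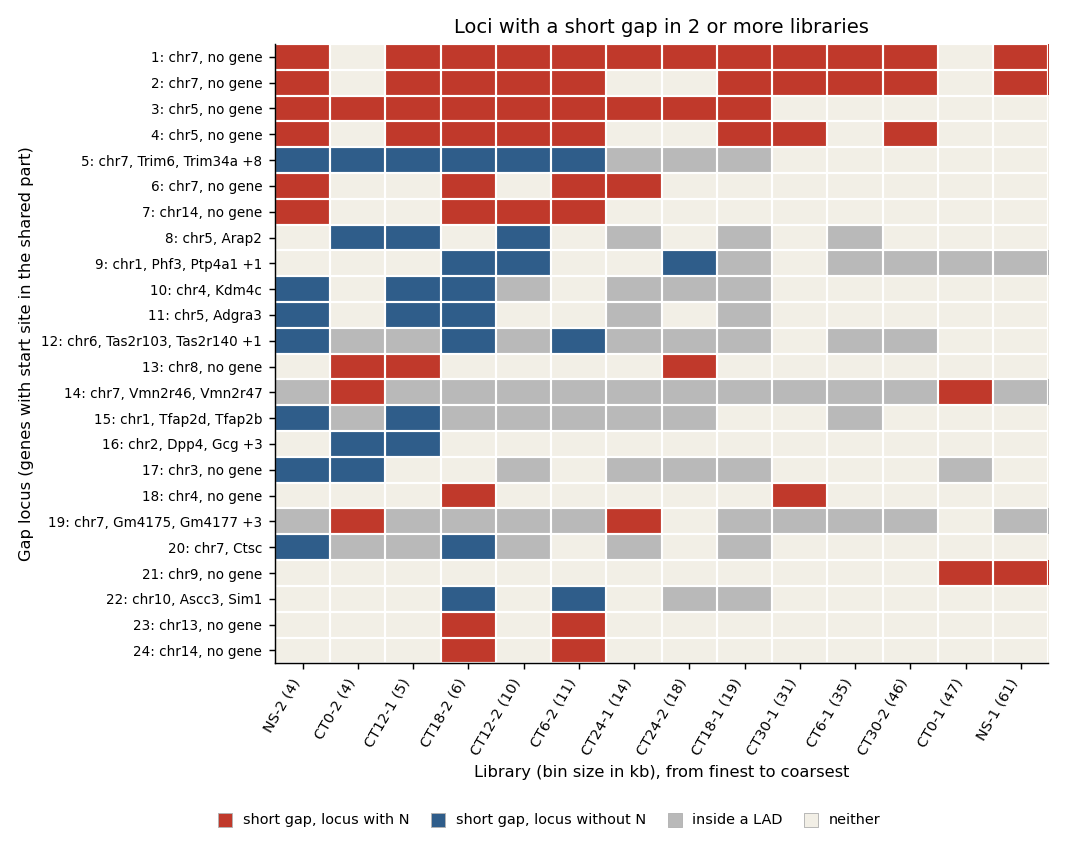
The 24 loci with a short gap in 2 or more libraries (rows, in order of the number of libraries) across the 14 libraries (columns, from the finest to the coarsest bin size, in kb in brackets). Red marks a short gap at a locus with N, blue a short gap at a locus without N, grey a library in which LADs cover at least 50% of the shared part, and cream a library with neither. Rows 1 and 2 carry red from bins of 4 kb to bins of 61 kb, row 3 up to 19 kb and row 4 up to 46 kb, whereas blue squares of row 5, the Trim genes, stop at the library with bins of 11 kb.

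Gaps without N were shared by fewer libraries. Of their 51 loci, 40 were found in 1 library and 11 in 2 or more, with at most 6 libraries. The upper limit of 500 kb lowers such counts where a library has a longer gap over the same locus. At the chr10 locus of Ascc3 and Sim1 the gap was 500 kb in CT0 replicate 2, 505 kb in CT12 replicate 1 and 576 kb in NS replicate 2. How far the limit accounts for the lower sharing was not tested. They were a median of 352 kb long (48 to 498 kb), against 101 kb (19.4 to 448 kb) for gaps with N. In bins of their library, gaps without N spanned 12 to 123 bins, with a median of 64. Gaps with N that lay on the grid spanned as few as 2 bins, with a median of 10.5. Gaps without N came almost wholly from libraries with fine bins: 68 were in the 6 libraries with bin sizes of up to 11 kb and 3 in the 8 libraries with bin sizes of 14 kb or more. The 3 were at CT24, 2 in replicate 1 and 1 in replicate 2.

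At loci without N, a library with no short gap most often lay outside LADs. Over the 51 loci and the 8 libraries with coarser bins, LADs covered at least 50% of the shared part in 154 of 408 combinations (37.7%), a short gap was found in 3, and neither in 251 (61.5%). In the 6 libraries with finer bins a short gap was found in 68 of 306 combinations, LADs covered the locus in 97 (31.7%), and neither held in 141 (46.1%). For 46 of the 51 loci LADs covered the shared part in at least 1 library.

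The gap without N that was found in most libraries held a cluster of Trim genes. TRIM proteins are RING-type ubiquitin ligases, and members of the TRIM5 and TRIM30 groups act in innate immunity to viruses. The gap was present in 6 libraries, all of those with bin sizes of up to 11 kb, and in none of the 8 others. It measured 356 kb in NS replicate 2, 472 kb in CT0 replicate 2, 484 kb in CT6 replicate 2, 385 kb in CT12 replicate 1, 360 kb in CT12 replicate 2 and 318 kb in CT18 replicate 2. CT12 was the only time point with the gap in both mice, and also the only one in which both libraries had bins of up to 11 kb. In CT18 replicate 1 and both CT24 libraries a LAD covered the whole shared part (chr7 from 104214001 to 104508000), and in the other 5 libraries it was outside LADs.

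The shared part of that gap held the whole of 10 protein-coding genes, in order Trim6, Trim34a, Trim5, Trim12a, Trim34b, Trim12c, Trim30b, Trim30c, Trim30a and Trim30d. Several of these are near-identical copies, to which short reads may not map uniquely. On both sides the LADs were rich in olfactory receptor genes, which encode odorant receptors of the nose. The LAD on the left held 73 to 89 protein-coding genes in the 6 libraries, of which 61 to 78 were olfactory receptor genes, and the LAD on the right held 26 to 36, of which 23 to 33 were. Outside the shared part the gaps themselves reached into these genes, with the TSS of 2 olfactory receptor genes in the gap of NS replicate 2, 6 in CT0 replicate 2, 10 in CT6 replicate 2, 3 in CT12 replicate 1, 2 in CT12 replicate 2 and 1 in CT18 replicate 2. The shared parts of the 70 loci held the TSS of 0 of the 1128 olfactory receptor genes on the autosomes, and of 126 of all 20807 protein-coding genes. In LADs of at least 7 libraries were 675 of the 1128 and 1707 of the 20807.

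**Figure D3:**
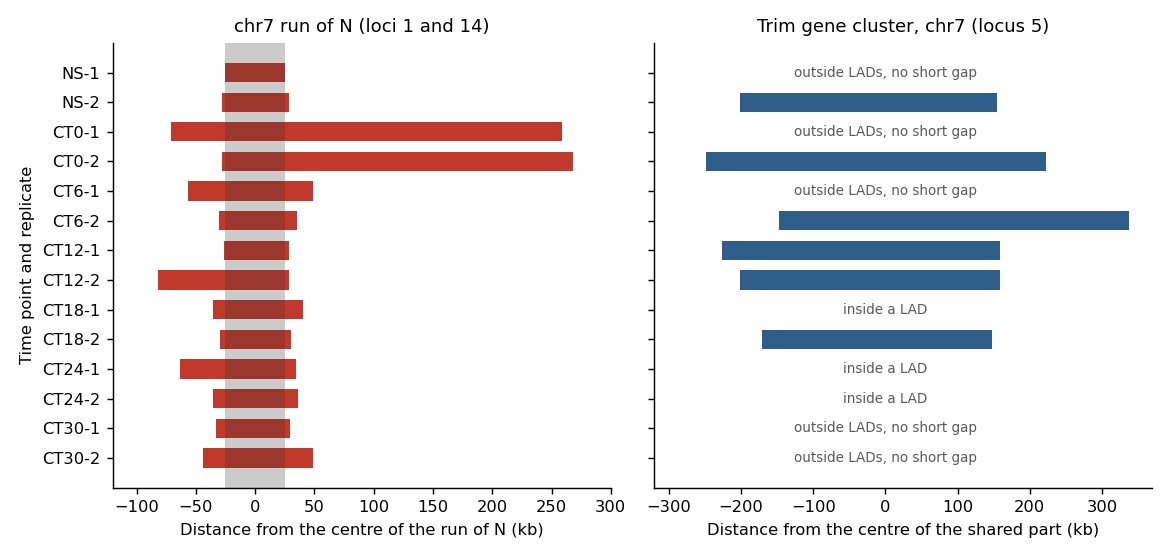
Extent of the gap in each library over the chr7 run of N (left, loci 1 and 14, the run shaded) and at the Trim gene cluster (right, locus 5), in kb from the centre of the run or of the shared part. Bars are gaps, from the end of a LAD to the start of the next. On the left 12 libraries have gaps of 50 to 110 kb and the CT0 libraries of 329 and 296 kb, and on the right 6 libraries have gaps of 318 to 484 kb.

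The 3 next loci without N, each in 3 libraries, held genes of other kinds. The eighth locus (chr5 from 62580001 to 62790000) held all of Arap2, which encodes a GTPase-activating protein for ARF proteins. Its gap was 388 kb in CT0 replicate 2, 320 kb in CT12 replicate 1 and 210 kb in CT12 replicate 2. The LAD to its left was 7.53 to 7.98 Mb long and held 2 protein-coding genes in each of these libraries, Pcdh7, a protocadherin gene, and G6pd2. CT6 replicate 1, CT18 replicate 1 and CT24 replicate 1 had a LAD over the locus, and 8 libraries had neither.

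The ninth locus (chr1 from 30760001 to 31160000) held Phf3, which encodes a PHD finger protein, Ptp4a1, which encodes a protein tyrosine phosphatase, and AC153137.1. Its gap was 400 kb in CT12 replicate 2, 462 kb in CT18 replicate 2 and 468 kb in CT24 replicate 2. The gap lay beside LADs of 4.80 to 4.85 Mb with 2 genes and of 1.21 to 1.83 Mb with 4 or 5 genes. NS replicate 1, CT0 replicate 1, CT6 replicate 1, CT18 replicate 1 and CT30 replicate 2, all with bin sizes of 19 kb or more, had a LAD over all of it. It lay in a longer gap of 804 kb in NS replicate 2, 816 kb in CT0 replicate 2, 660 kb in CT6 replicate 2 and 845 kb in CT12 replicate 1. The upper limit of 500 kb thus sets the count of libraries at this locus.

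The next locus of this kind (chr4 from 74175001 to 74388000) held the TSS of Kdm4c, which encodes a demethylase of histone H3 lysine 9, a residue whose methylation is known in LADs. Its gap was 300 kb in NS replicate 2, 300 kb in CT12 replicate 1 and 282 kb in CT18 replicate 2. A LAD covered the locus in CT12 replicate 2, CT18 replicate 1 and both CT24 libraries.

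Other gaps without N were found in 2 or 3 libraries, and the following were picked after their values were seen. The eleventh locus (chr5 from 49890001 to 50160000) held Adgra3, an adhesion G protein-coupled receptor gene, in gaps of 356 kb (NS replicate 2), 315 kb (CT12 replicate 1) and 360 kb (CT18 replicate 2). The twelfth (chr6 from 133036001 to 133210000) held the bitter taste receptor genes Tas2r103 and Tas2r140 and Smim10l1, with a gap of 176 to 270 kb in 3 libraries and a LAD over the locus in 8 libraries. Dpp4, Gcg, Fap, Ifih1 and Gca, of which Gcg encodes preproglucagon and Ifih1 a sensor of viral RNA, lay in a gap of 396 kb in CT0 replicate 2 and 405 kb in CT12 replicate 1. No library had a LAD over that locus (chr2 from 62308001 to 62700000). The AP-2 transcription factor genes Tfap2d and Tfap2b lay in a gap of 324 kb in NS replicate 2 and 320 kb in CT12 replicate 1, and 7 libraries had a LAD there. Hmox1, the gene of heme oxygenase, lay in a gap of 350 kb that was found in CT24 replicate 1 only (chr8 from 74914001 to 75264000). It was under a LAD in 0 libraries, and in the 13 others the locus lay outside LADs without a short gap.

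Short gaps without N held more genes than the LADs around them. A protein-coding TSS was found in the shared part of 37 of the 51 loci, with 115 genes in all and at most 17 at a locus. The locus with 17 genes, a gap of 328 kb in CT0 replicate 2 (chr16 from 88552001 to 88880000), held 10 genes of keratin-associated proteins of hair. Per Mb of known bases the gaps held more genes than both flanking LADs combined at 32 loci, fewer at 13, and neither side held more at the others. The median over loci was 3.97 genes per Mb in gaps and 1.06 in their flanks. At the Trim locus the order was the opposite, with 38.9 genes per Mb in the gap and 54.2 in the flanks. GC content was higher in the gap than in its flanks at 43 of the 51 loci (medians of 39.1% and 37.9%), and the share of repeats was lower at 38 of 51 (medians of 37.0% and 42.1%).

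**Figure D4:**
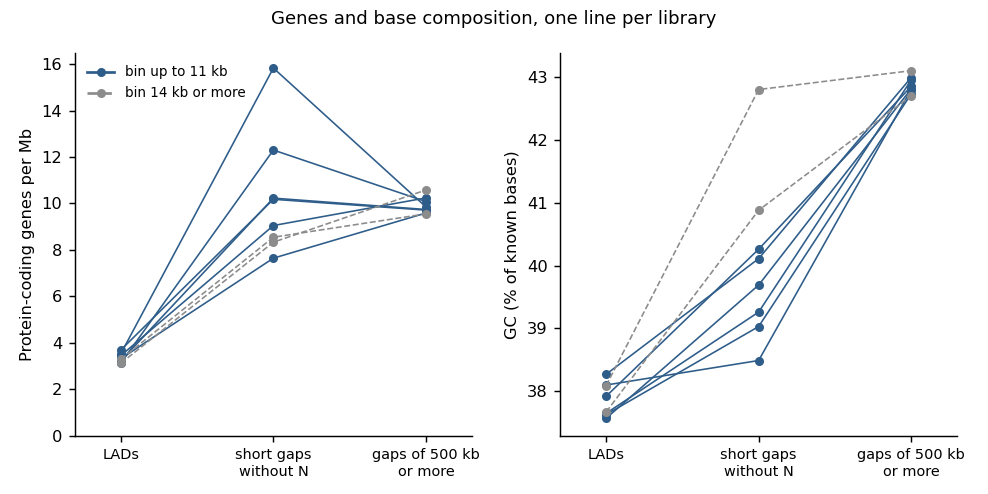
Protein-coding genes per Mb of known bases (left) and GC content in % (right) of LADs, of short gaps without N and of gaps of 500 kb or more, in the 8 libraries that have short gaps without N, 1 line each. Solid lines are libraries with bin sizes of up to 11 kb and dashed lines those with 14 kb or more. Short gaps lie above LADs in both panels in each of the 8 libraries, and below the longer gaps in GC content. The gene-rich Trim gap is among the short gaps of every solid line.

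Library by library, short gaps without N held 7.65 to 15.8 genes per Mb (median 9.62, n = 8 libraries). The density was 2.61 to 3.69 in LADs and 9.08 to 10.6 in gaps of 500 kb or more, over 14 libraries. The short gaps without N were above the LADs of the same library in 8 of 8 libraries and above the longer gaps in 4 of 8. These densities rest on few loci. The Trim gap was in all 6 libraries with bins of up to 11 kb, with 11 (CT18 replicate 2) to 20 (CT0 replicate 2 and CT6 replicate 2) TSS. CT24 replicate 1 had 2 gaps without N and CT24 replicate 2 had 1. Densities without the Trim gap were not computed, so neither count can be taken as general to short gaps. Their GC content was 38.5 to 42.8%, above that of the LADs in 8 of 8 libraries and below that of the longer gaps in 8 of 8. The libraries share loci, so these counts are a description and no test was made.

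Among gene families, the share of members with a TSS in a gap locus was set beside the 0.606% of all autosomal protein-coding genes (126 of 20807). It was 9.09% for keratins and keratin-associated proteins (10 of 110, at 1 locus in 1 library), 1.22% for vomeronasal receptors (4 of 327) and 1.2% for zinc finger proteins (5 of 415). Of the last, Zfp141, Zfp977, Zfp976 and Zfp975 were at 1 locus, a gap in NS replicate 2 only, and Zfp42 in a gap of CT12 replicate 1 only. Vmn2r62 was in the same NS replicate 2 gap, Vmn2r46 and Vmn2r47 at 1 locus of the CT0 libraries, and Vmn1r135 at a locus of 2 libraries. For conjugating transferases the share was 1.56% (1 of 64, Sult1c2), and for GABA and glutamate receptors 2.22% (1 of 45, Gabra5). No gene of the 21 core clock genes, the 100 cytochrome P450 genes, the 60 serpin genes, the 372 solute carrier genes, the 92 potassium channel genes, the 90 cadherin and protocadherin genes, the 64 defensin genes, the 77 ribosomal protein genes or the 75 histone genes had its TSS in a gap locus. These counts are for the shared parts of the loci, and single gaps extend beyond them. In LADs of at least 7 libraries were 0 of the 100 cytochrome P450 and 0 of the 60 serpin genes, beside 1707 of the 20807 protein-coding genes.

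Gaps without N lay between LADs of a range of sizes. The smaller of the 2 flanking LADs had a median of 0.572 Mb (0.324 to 1.83 Mb) and the larger a median of 1.515 Mb (0.448 to 8.69 Mb). The smaller flank was under 1 Mb for 64 of the 71 gaps and under 500 kb for 27. Both flanks were under 1 Mb for 22 gaps and over 1 Mb for 7. In the 6 libraries with bins of up to 11 kb, the median smaller flank was 0.566 Mb for gaps without N and 0.7125 Mb for gaps with N. The median larger flank was 1.468 Mb and 2.124 Mb, and the median LAD of these libraries was 1.09 to 1.595 Mb. The smaller of 2 LADs tends to lie below the median LAD by its definition, so these values do not show that flanking LADs were small. A gap of 90 kb on chr9 (13324304 to 13414303), the same in NS replicate 1 and CT0 replicate 1, was a run of N between LADs of 0.0116 Mb and 0.00198 Mb, shorter than the bins of 61 kb and 47 kb. LADs that flanked a short gap made up 2.99% (CT6 replicate 1) to 18.9% (NS replicate 2) of the LADs of a library. Closing all short gaps would lower the number of LADs from 285 to 257 in NS replicate 2 and from 134 to 132 in CT6 replicate 1, and would add 1.42% and 0.0424% to their coverage.

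The number of short gaps went with the bin size of the library. By number of gaps the libraries fell into separate sets, and no correlation over all 14 was computed. There were 11 to 28 short gaps in the 6 with bin sizes of up to 11 kb and 2 to 6 in the 8 with bin sizes of 14 kb or more. Bin sizes themselves have no wide break there, and a wider step lies between 19 and 31 kb. The cut thus follows the number that is tested, and the values within each set depend on it. In the coarser set the number fell with log2 bin size (Pearson r = -0.826, exact two-sided permutation p = 0.0131, Benjamini-Hochberg adjusted p = 0.0262, n = 8). The Spearman rho was -0.800 (exact permutation p = 0.0226, adjusted p = 0.0452). In that set r was -0.799 without CT24 replicate 1 and NS replicate 1, the libraries farthest from the median, and -0.857 within its 6 libraries of replicate 1 (exact permutation p = 0.0361; rho = -0.812, exact permutation p = 0.0722). Leaving out CT24 replicate 1 alone took p above 0.05 (r = -0.719, exact permutation p = 0.0730).

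In the finer set r was -0.695 (exact permutation p = 0.139, adjusted p = 0.139, n = 6) and rho was -0.647 (exact permutation p = 0.167, adjusted p = 0.167), and r was -0.290 without CT6 replicate 2 and CT12 replicate 2. Within the finer set, 1 library was of replicate 1 and 5 of replicate 2, too few for a value within a replicate number. With gaps that hold N left out, r in the finer set was -0.826 (exact permutation p = 0.0389). These are 2 relations, adjusted together, and the number of LADs moved with bin size too, from 85 to 184 LADs in the coarser set and 234 to 325 in the finer.

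**Figure D5:**
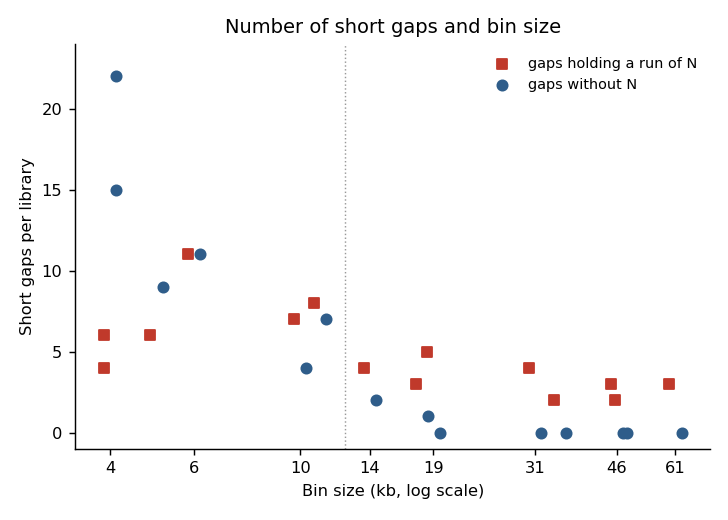
Number of short gaps per library against bin size in kb (log scale), for gaps that hold a run of N (squares) and gaps without N (circles), with both kinds drawn slightly apart. The dotted line parts the 6 libraries with bin sizes of up to 11 kb from the 8 with 14 kb or more. Gaps without N number 4 to 22 in the finer set and 0 to 2 in the coarser, and gaps with N 4 to 11 and 2 to 5.

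No test of short gaps over the time points passed 0.05. There were 2 and 19 short gaps at CT0 (replicates 1 and 2), 2 and 15 at CT6, 15 and 11 at CT12, 5 and 22 at CT18, 6 and 4 at CT24 and 4 and 3 at CT30, and 3 and 28 at NS. The replicates of a time point with a fine and a coarse bin size lay far apart, as at NS, CT0, CT6 and CT18. The mean was 13.0 ± 2.83 at CT12, 13.5 ± 12.0 at CT18 and 3.50 ± 0.707 at CT30 (SD, n = 2), where bin sizes were 5 and 10 kb, 19 and 6 kb, and 31 and 46 kb. Over the 6 CTs the F ratio of the number was 0.531 (p = 0.725, exact permutation of the 12 libraries over the CTs). As a share of all gaps, short gaps made up 1.74% (CT6 replicate 1) to 7.20% (CT0 replicate 2) in the CT libraries, and the F ratio was 0.517 (exact permutation p = 0.746). The median length was 62 kb and 92 kb at CT30, where all gaps held N, and 364 kb and 351 kb at CT24, and the F ratio of log2 median length over the CTs was 2.13 (exact permutation p = 0.185). With log2 bin size held fixed, an alternative added after the data were seen, the F ratio of the number was 1.25 (exact permutation p = 0.387).

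For entrainment of the clock, the number was 15.5 ± 17.7 at NS and 10.5 ± 12.0 at CT0 (SD, n = 2), a difference of -5 that is within the spread between replicates (exact two-sided permutation test, p = 0.667). It turned to 7.50 without NS replicate 2 and to 3.50 without CT0 replicate 1. The smallest p that 2 libraries against 2 allow is 0.333.

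The sharing of gap loci between mice of the same time point did not pass 0.05 against that between other pairs of mice. Of the loci found in either replicate, the share found in both was 0.750 at CT30, 0.300 at CT12, 0.25 at CT24, 0.174 at CT18, 0.133 at CT6, 0.0690 at NS and 0.05 at CT0. All 3 loci shared at CT30 were over 50% N, as were 4 of the 6 shared at CT12 and all of those shared at NS, CT6, CT18 and CT24. The mean was 0.247 over the 7 replicate pairs and 0.175 over the 84 other pairs, and the difference of 0.0717 had a one-sided p of 0.0802 (exact permutation, every way to pair up the 14 libraries). It turned to -0.00579 without CT30 replicate 1 and to -9.21e-05 without CT30 replicate 2, and rose to 0.113 without NS replicate 1 (exact permutation p = 0.0232), 0.104 without CT6 replicate 1 (exact permutation p = 0.0297) and 0.101 without CT18 replicate 1 (exact permutation p = 0.0426). With gaps that hold N left out the difference was 0.00355 (exact permutation p = 0.399). Without N, 15 of 15 pairs of libraries with bins of up to 11 kb shared a locus (mean share 0.115), and 0 of 28 pairs with bins of 14 kb or more did. The first count is fixed by the Trim locus alone, which was found in all 6 libraries with the finer bins. Only 2 of the 8 libraries with coarser bins had any gap without N, so nearly all of the 28 pairs could not share one. No conclusion on sharing is drawn from these 2 counts.

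The length limits cut through a continuous range at the upper end only. The shortest gap taken was 19.4 kb and the longest gap under 10 kb was 4 kb. The longest taken was 498 kb and the shortest left out at the upper end 500 kb, with 35 gaps of 400 to under 500 kb and 36 gaps of 500 to under 600 kb.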

How the data were processed

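LMNB1 ChIP-seq of liver from 14 mice was used, 2 at each of 7 time points. Per mouse, the authors mapped reads to mm10 with Bowtie (Bowtie2 2.25.0 per the submitters' processing notes), removed duplicates with Picard, down-sampled ChIP and input to equal depth on every chromosome, and called LADs with EDD, with GapPenalty and BinSize averaged over repeated runs. The deposited files give the start and end of each LAD in base pairs, without scores, so depth is unknown and no counting interval can be given. Inputs and RNA-seq were not analysed here.

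Gaps were joined into loci by single linkage at a reciprocal overlap of 0.5. Bin size was read from LAD starts, as the greatest common divisor in whole kb. Runs of N, GC and soft-masked repeats came from GRCm38.p6, genes from GENCODE vM21 and promoters from RefSeq (GRCm38.p6). The 10 loci found in most libraries were named (ties by time points with both mice, then position), with the protein-coding genes whose TSS lies in them. Promoters were taken in turn from the first 4 of these loci that hold genes, 1 per locus and round, up to 6, at the RefSeq start nearest the annotated one, skipping genes RefSeq did not place there (Phf3). Members, gene families and alternatives were chosen with earlier results of these data known. Exact permutation tests over libraries, tested on simulated data, used Python 3.11.15, NumPy 2.4.6 and SciPy 1.17.1. The F tests set the CTs against the spread between the mice of a time point. The test of CT0 against NS divides their libraries in every way. The tests against bin size permute the libraries within a set, and the sharing test permutes which libraries are paired. The planned correlation over all 14 libraries was replaced by 1 within each set of bin sizes, and the cut between the sets follows the number of gaps.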

Additional observations from a re-analysis of the deposited data

How the results depend on the processing

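The tests over CTs stayed above 0.05 in every alternative run, with p from 0.387 to 0.862 for the number, 0.225 to 0.879 for the share and 0.102 to 0.840 for the median length. The alternatives were gaps of 100 to under 500 kb, gaps of 10 kb to under 1 Mb, all chromosomes, LADs under 500 kb dropped, a replicate block, each library left out, and, chosen after the data were seen, log2 bin size held fixed and gaps with any N left out. With each library left out the F ratio was 0.342 to 1.24 for the number, 0.317 to 1.202 for the share and 1.201 to 3.495 for the median length. The median length could not be had at 100 to under 500 kb, since both CT30 libraries had no such gap, and neither all chromosomes nor gaps with N left out were run for it. The replicate numbers of the labels mark no shared animal, and replicate 2 had more short gaps than replicate 1 at 4 of 7 time points. With them as a replicate block the F ratio of the number was 0.678 (exact permutation p = 0.631), and the block changed no call.

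The difference of CT0 from NS turned to 1 with gaps of 10 kb to under 1 Mb, and ranged from -17.5 to 7.50 with each library left out (7.50 without NS replicate 2 and 3.50 without CT0 replicate 1), as values with no test. The sharing by replicates ranged from -0.00579 to 0.113 with each library left out. It was -0.00579 without CT30 replicate 1 and -9.21e-05 without CT30 replicate 2, and its exact permutation p was 0.0232 without NS replicate 1, 0.0297 without CT6 replicate 1 and 0.0426 without CT18 replicate 1. Over its alternatives p ranged from 0.0232 to 0.481. For the number against bin size, the finer set gave r = -0.828 at 100 to under 500 kb (exact permutation p = 0.0444) and -0.826 with N left out, and -0.804 to -0.552 with each library left out. The coarser set gave r from -0.879 to -0.719 with each library left out.

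The 139 short gaps became 329 with an upper limit of 1 Mb, 87 without gaps over 50% N and 71 without gaps holding any N. Genes per Mb over all gaps, 9.73, became 25.7 with all annotated genes. The 70 loci became 68 to 87 with a reciprocal overlap of 0.2 or 0.8 or average linkage. The cause of these changes was not tested beyond what each alternative removes or adds. Depth is unknown, so no value can be weighted by it.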

Other observations

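Short gaps on the sex chromosomes, outside the choice by chr1 to chr19, numbered 15 at 7 loci, 14 gaps on chrX and 1 on chrY. At 5 of the 7 loci over 50% of the shared part was N. The most recurrent were on chrX from 28330001 to 28384000 (92.6% N, gaps of 60 to 121 kb) and from 30440001 to 30546000 (94.3% N, gaps of 110 to 162 kb), each found in NS replicate 2, CT6 replicate 2, CT12 replicate 2 and CT18 replicate 2. A single locus held no N, on chrX from 148580001 to 149024000, in NS replicate 2, with the TSS of Gm8334, Gm15127 and Luzp4. The gap on chrY was 126 kb long, in CT24 replicate 2, with 79.4% N in its shared part.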
